A study of Rattus norvegicus with 12 samples.

Results

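The ABC drug efflux pumps are membrane proteins that bind and split ATP to drive drugs, conjugates and other organic ions out of cells. Here 9 rat pump genes were followed (Abcc2, Abcc4, Abcb1a, Abcb1b, Abcg2, Abcc1, Abcc3, Abcc5 and Abcc6), out of 15284 genes that the array's RefSeq accessions named. They were taken as all array probes whose RefSeq transcript carries one of these symbols, which gave 21 probes. RNA came from the kidney cortex of 12 male rats of the Sprague-Dawley strain (Crl:CD(SD), bought at 5 weeks of age), and each animal had a 1-colour Agilent array. Bromodichloromethane (BDCM), a halomethane that forms when water is chlorinated, was given at 200 mg/kg per day for 4 weeks, and the other rats received corn oil alone. Kidneys were collected 24 h after the final dose. The groups were BDCM with CO2-O2 anaesthesia, oil with CO2-O2 anaesthesia, BDCM with isoflurane anaesthesia and oil with isoflurane anaesthesia, with 3 animals in each. CO2-O2 and isoflurane animals belonged to separate experiments.

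In the proximal tubule, organic anions and cations enter from the blood through carriers on the basolateral side and leave into the urine through pumps of the brush border. Abcc2 (Mrp2), Abcc4 (Mrp4), the P-glycoproteins Abcb1a and Abcb1b, and Abcg2 (Bcrp) are known as pumps of the brush border. Abcc1, Abcc3, Abcc5 and Abcc6 are known from the basolateral side of epithelial cells. The ABCC proteins carry many glutathione, glucuronide and sulfate conjugates, which links them to the conjugating enzymes of the same cells.

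RefSeq promoter windows (build GRCr8, 300 bases that end shortly after the gene start) were held for 7 of the 9 genes, all but Abcc3 and Abcc5. Those printed here belong to the pumps with the greatest rises, Abcc2 and Abcb1b, to Abcb1a, which is the close relative of Abcb1b, and to Abcg2, which passed no test. Capitals mark the core of the antioxidant response element, TGANNNNGC, on either strand.
Abcc2, chr1:252613625-252613924, plus strand: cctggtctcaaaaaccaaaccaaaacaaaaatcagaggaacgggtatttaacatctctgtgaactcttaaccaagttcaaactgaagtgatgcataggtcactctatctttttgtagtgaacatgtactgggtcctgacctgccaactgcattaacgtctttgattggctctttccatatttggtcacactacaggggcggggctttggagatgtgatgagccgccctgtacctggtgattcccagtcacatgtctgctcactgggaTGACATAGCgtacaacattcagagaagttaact
Abcb1b, chr4:26279980-26280279, minus strand: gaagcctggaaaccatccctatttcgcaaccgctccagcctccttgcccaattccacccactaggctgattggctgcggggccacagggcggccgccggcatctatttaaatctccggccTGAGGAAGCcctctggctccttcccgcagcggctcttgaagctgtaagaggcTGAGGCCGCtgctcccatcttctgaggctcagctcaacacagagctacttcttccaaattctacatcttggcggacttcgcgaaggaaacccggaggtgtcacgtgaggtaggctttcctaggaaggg
Abcb1a, chr4:26397599-26397898, minus strand: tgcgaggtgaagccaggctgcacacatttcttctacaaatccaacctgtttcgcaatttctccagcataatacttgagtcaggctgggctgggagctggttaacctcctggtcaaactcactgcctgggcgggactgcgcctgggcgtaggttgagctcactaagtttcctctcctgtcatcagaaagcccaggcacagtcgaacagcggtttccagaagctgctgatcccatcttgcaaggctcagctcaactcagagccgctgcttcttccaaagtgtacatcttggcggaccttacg
Abcg2, chr4:89075224-89075523, plus strand: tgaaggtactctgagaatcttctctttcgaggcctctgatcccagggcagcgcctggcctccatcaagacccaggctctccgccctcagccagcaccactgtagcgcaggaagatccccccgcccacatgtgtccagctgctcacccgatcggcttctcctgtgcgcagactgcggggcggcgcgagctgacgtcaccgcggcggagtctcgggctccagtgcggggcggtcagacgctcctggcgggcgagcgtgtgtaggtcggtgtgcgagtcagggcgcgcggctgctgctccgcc
This core stood in the windows of 4 of the 7 genes: Abcc2, Abcc4 and Abcc6 held 1 match each and Abcb1b held 2, while Abcc1, Abcb1a and Abcg2 held none. Of 33469 rat promoter windows of the same length, 40.5% held it. In Abcc2 the match starts at position 18 after the gene start, and in Abcb1b the matches start at -130 and -78. A GC box (GGGCGG, either strand) stood in all 7 windows and in 33.1% of all windows. CCAAT boxes (CCAAT, either strand) stood in 3 of 7 and in 37.5% of all windows, and the core of the xenobiotic response element (GCGTG, either strand) in 3 of 7 and 29.7%. The AP-1 motif TGANTCA stood in Abcb1a only, against 7.33% of all windows. The amino acid response motif TGATGNAAN (3.97% of all windows) matched no pump window. The AP-1, amino acid response and antioxidant motifs begin with the same letters and could overlap, but did not in these windows. A match is a description of letters and says nothing of binding.

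All 21 pump probes were well above background on all 12 arrays. Values are given as relative signal, which is the processed signal divided by the 75th percentile of the same array. Levels of different probes are not comparable, because each probe has its own brightness. The 75th percentile lay between 1080 and 1476 intensity units, 67.4 to 72.5% of non-control probes per array were well above background, and replicate arrays of a group correlated at 0.99 over all features. Replicates were separate animals, and 3 per group limits the precision. Slides and scan days were never shared between the experiments. Within the CO2-O2 experiment slide and scan day split the arrays alike, so a model term for either gives the same CO2-O2 difference. Markers of the labelled tissue were present: 10 of 10 proximal tubule markers were well above background in each group.

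Averaged over both experiments, 6 of the 9 pumps were higher in BDCM kidneys (Abcc2, Abcb1b, Abcc3, Abcb1a, Abcc4 and Abcc5) and 1 was lower (Abcc6), by limma's moderated test with Benjamini-Hochberg adjustment over 34218 features and a threshold of 0.05. Abcc1 and Abcg2 did not pass. Of all features tested, 17.7% were higher and 20.4% were lower. The median log2 difference of the 9 pumps was 1.34, beside -0.04 for all features. The same 6 pumps passed as higher in the CO2-O2 experiment (10% of all features) and in the isoflurane experiment (13.2%), and 8.58% of all features were called higher in both (6.92% were called lower in both). Abcc6 passed as lower in the CO2-O2 experiment, where 9.89% of features did. None passed as lower in the isoflurane experiment, where 12.9% of features did. Counting both directions, 7 pumps had an unadjusted p under 0.05 there, Abcg2 (lower) and the 6 that rose. So did 13058 of the 34218 features. All 3 BDCM animals lay above all 3 oil animals for these 6 pumps in both experiments, a separation seen in 18.3% of features with CO2-O2 and 20.6% with isoflurane. When slide was a fixed term, the effect with CO2-O2 rested on 1 BDCM and 3 oil arrays of the same slide, and the isoflurane effect on 2 BDCM arrays and 1 oil array. There Abcc2 (4.41 with CO2-O2 and 5.10 with isoflurane on the log2 scale), Abcb1b (3.72 and 4.43), Abcc3 (1.54 and 2.00) and Abcc4 (1.43 and 1.74) still passed in both experiments, and Abcb1a passed with CO2-O2 (2.00). In whole cortex, fewer cells of a type and less RNA per cell cannot be told apart.

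**Figure D1:**
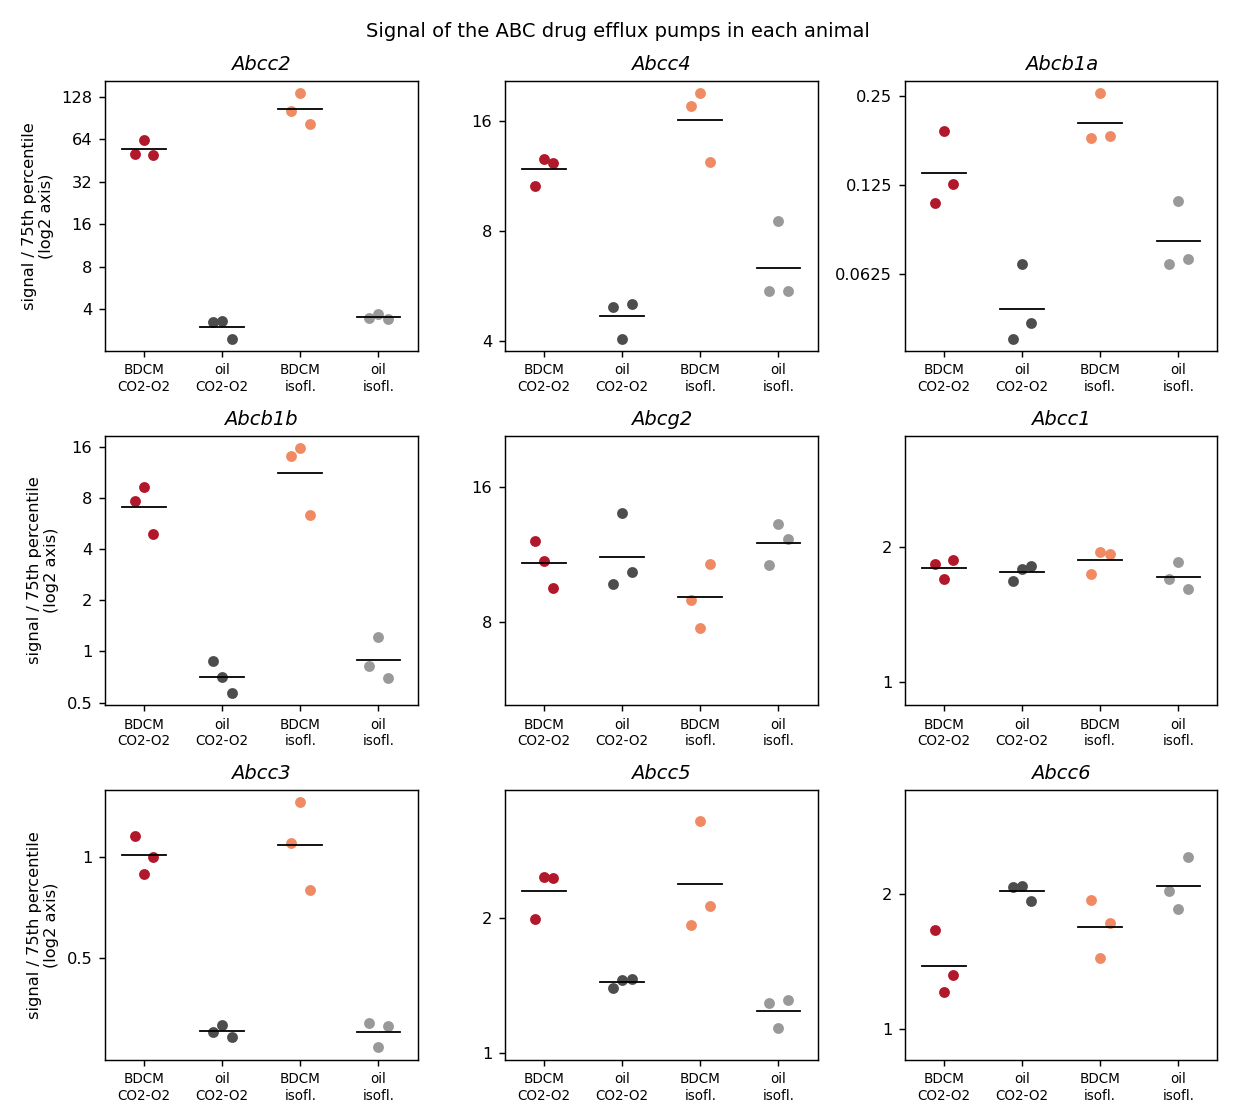
Relative signal (signal divided by the array's 75th percentile, log2 axis) of each pump's brightest probe in each animal, by group; points are animals and the horizontal line is the group mean of log2 values (n = 3). BDCM animals sit above oil animals in both experiments for Abcc2, Abcb1b, Abcc3, Abcb1a, Abcc4 and Abcc5, and overlap them in at least 1 experiment for Abcc1, Abcc6 and Abcg2.

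Among the pumps of the brush border, Abcc2, which exports glutathione and glucuronide conjugates, showed the greatest difference by the brightest probe of each gene. It was measured by 1 probe, and 1 dimmer probe of Abcb1b had a greater mean effect (5.23 on the log2 scale). In the CO2-O2 experiment the relative signal of Abcc2 was 50.5, 63.6 and 49.7 in BDCM animals, against 3.25, 3.29 and 2.48 in oil animals. In the isoflurane experiment it was 102, 136 and 82.4 in BDCM animals, against 3.498, 3.71 and 3.42 in oil animals. The groups were far apart, and every isoflurane BDCM animal was above every CO2-O2 BDCM animal. Abcc2 rose 18.2-fold with CO2-O2 (95% confidence interval 13.7 to 24.1; adjusted p = 7.31e-06) and 29.5-fold with isoflurane (22.3 to 39.0; adjusted p = 1.57e-06). The mean effect was 4.53 ± 0.13 on the log2 scale (SE, 6 animals per treatment; adjusted p = 1.02e-07), and 9 of the 12208 named genes tested had a greater one. Over 29 alternative settings this mean effect ran from 4.43 to 4.76 and always passed.

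Abcc4, a pump of cyclic nucleotides, urate and many drugs, shares the brush border with Abcc2. Its brightest probe read 10.6, 12.6 and 12.3 in CO2-O2 BDCM animals, against 4.96, 4.05 and 5.03 in CO2-O2 oil animals. It read 17.6, 19.0 and 12.3 in isoflurane BDCM animals, against 5.48, 8.48 and 5.47 in isoflurane oil animals. No BDCM animal reached down to an oil animal of its own experiment. The rise was 2.53-fold in each experiment (1.84 to 3.46 with CO2-O2, adjusted p = 0.00159; 1.85 to 3.46 with isoflurane, adjusted p = 0.00117). All 4 Abcc4 probes agreed, with mean effects of 1.24 to 1.41 on the log2 scale.

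Abcb1a and Abcb1b encode the rodent P-glycoproteins, which share the work that a lone ABCB1 gene does in humans. They stand next to each other on chromosome 4 with 1 long noncoding RNA gene between them. Abcb1b gave 7.72, 9.29 and 4.89 in CO2-O2 BDCM animals, against 0.875, 0.708 and 0.569 in CO2-O2 oil animals. In the isoflurane experiment it gave 14.2, 15.8 and 6.39 in BDCM animals, against 0.824, 1.21 and 0.697 in oil animals. Animal 3 was the lowest BDCM animal of each experiment, yet was still above all oil animals. Abcb1b rose 9.98-fold with CO2-O2 (5.67 to 17.6; adjusted p = 0.000251) and 12.7-fold with isoflurane (7.23 to 22.4; adjusted p = 6.85e-05).

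The 3 Abcb1b probes gave different sizes. The brightest had a mean effect of 3.49 ± 0.26 on the log2 scale (SE), and a second had 3.37 ± 0.24. The remaining one had 5.23 ± 0.33, a 37.6-fold rise, and its 95% interval (4.50 to 5.96) did not overlap that of the brightest (2.92 to 4.07). On that probe BDCM animals read 4.49 to 9.66 with CO2-O2 and 6.63 to 18.9 with isoflurane, against 0.179 to 0.274 and 0.179 to 0.416 in oil animals. All 3 agreed on the direction. Abcb1a and Abcb1b are close in sequence, and whether their probes capture each other's RNA was not checked here.

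Abcb1a, measured by 1 dim probe, rose less. It read 0.108, 0.191 and 0.126 in CO2-O2 BDCM animals, against 0.0377, 0.0672 and 0.0426 in CO2-O2 oil animals. It read 0.180, 0.256 and 0.182 in isoflurane BDCM animals, against 0.0676, 0.110 and 0.0701 in isoflurane oil animals. Treated and oil animals were apart within each experiment, but isoflurane oil animal 2 stood above CO2-O2 BDCM animal 1. The rise was 2.89-fold with CO2-O2 (1.85 to 4.51; adjusted p = 0.00541) and 2.52-fold with isoflurane (1.62 to 3.94; adjusted p = 0.00806). With normexp background correction the mean effect was 0.92 on the log2 scale, against 1.43 with the processed signal, and it still passed (adjusted p = 0.000194). The isoflurane call ended with slide as a fixed block (1.61, adjusted p = 0.0638).

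Abcg2, which exports urate and sulfate conjugates, did not pass in any of these comparisons. Its brightest probe read 12.1, 10.9 and 9.51 in CO2-O2 BDCM animals, against 9.68, 13.96 and 10.3 in CO2-O2 oil animals. It read 8.94, 7.75 and 10.73 in isoflurane BDCM animals, against 10.72, 13.2 and 12.2 in isoflurane oil animals. The groups were mixed with CO2-O2, and with isoflurane they met only at the highest BDCM and the lowest oil animal. The difference was -0.05 on the log2 scale with CO2-O2 (-0.42 to 0.32; adjusted p = 0.864) and -0.40 with isoflurane (-0.78 to -0.03; adjusted p = 0.102). These intervals leave out a rise of the size seen for Abcc4. The CO2-O2 value changed sign when oil animal 2 was left out (0.11, adjusted p = 0.691) or BDCM animal 3 was (0.04, adjusted p = 0.914), and with normexp background correction (0.0032).

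**Figure D2:**
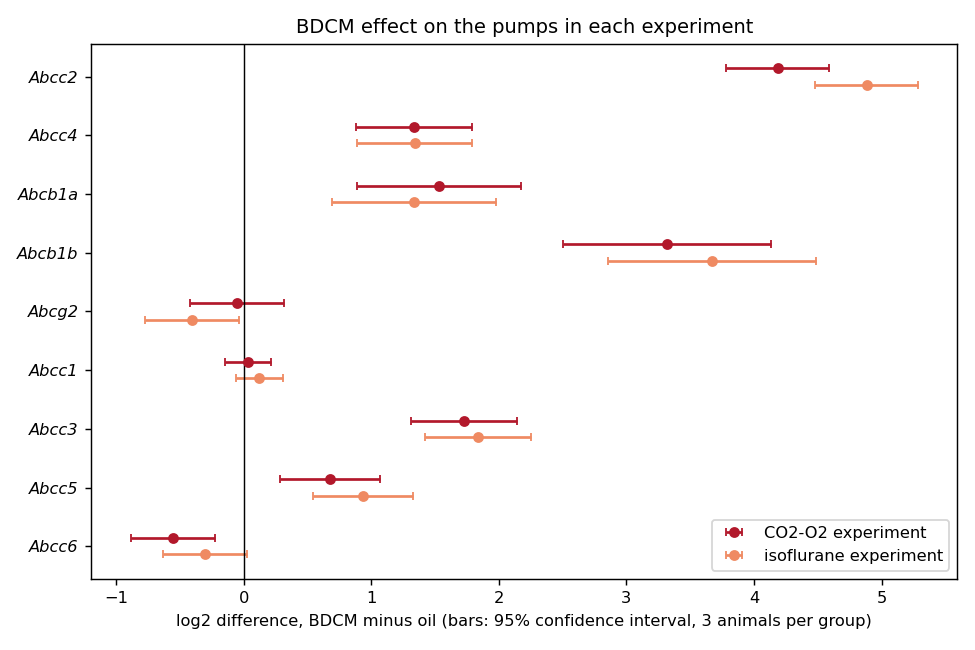
Log2 difference, BDCM minus oil, for each pump in each experiment, with 95% confidence intervals (3 animals per group). Abcc2 and Abcb1b lie above 3 in both experiments, Abcc3, Abcb1a, Abcc4 and Abcc5 lie between 0.68 and 1.84, and Abcc1 and Abcg2 have intervals that reach 0 in the CO2-O2 experiment.

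Of the basolateral members, Abcc3, known to return glucuronides and bile acids to the blood, rose most. It read 1.15, 0.886 and 1.000 in CO2-O2 BDCM animals, against 0.303, 0.317 and 0.293 in CO2-O2 oil animals. It read 1.097, 1.45 and 0.797 in isoflurane BDCM animals, against 0.321, 0.273 and 0.315 in isoflurane oil animals. Oil animals lay close together and every BDCM animal was clear of them. The rise was 3.31-fold with CO2-O2 (2.48 to 4.42; adjusted p = 0.000231) and 3.58-fold with isoflurane (2.69 to 4.78; adjusted p = 7.47e-05). The 3 probes of Abcc3 gave mean effects of 1.78, 1.86 and 1.86 on the log2 scale.

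Abcc5, a pump of cyclic nucleotides and nucleotide drugs, rose by less. It read 1.99, 2.47 and 2.45 in CO2-O2 BDCM animals, against 1.39, 1.45 and 1.46 in CO2-O2 oil animals. It read 1.92, 3.28 and 2.13 in isoflurane BDCM animals, against 1.29, 1.13 and 1.31 in isoflurane oil animals. BDCM animal 2 of the isoflurane experiment was well above the other two, and no treated animal overlapped the oil animals. Abcc5 rose 1.60-fold with CO2-O2 (1.22 to 2.10; adjusted p = 0.0239) and 1.92-fold with isoflurane (1.46 to 2.51; adjusted p = 0.00393). The CO2-O2 call ended with a block for slide (adjusted p = 0.119) or scan day (0.0878), and when oil animal 1 (0.0689), 2 (0.0618) or 3 (0.0645) or BDCM animal 2 (0.0731) or 3 (0.0792) was left out. The isoflurane call ended with slide as a block (0.94 on the log2 scale, adjusted p = 0.0981). The second, dimmer probe had a mean effect of 0.67 (adjusted p = 0.0115), and did not pass with CO2-O2 alone (0.64, adjusted p = 0.0912) or isoflurane alone (0.69, adjusted p = 0.0587).

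Abcc6, whose loss in humans causes calcification of soft tissue and which was measured by 1 probe, was the only pump that passed as lower. It read 1.66, 1.21 and 1.32 in CO2-O2 BDCM animals, against 2.08, 2.08 and 1.93 in CO2-O2 oil animals. It read 1.94, 1.44 and 1.73 in isoflurane BDCM animals, against 2.03, 1.85 and 2.42 in isoflurane oil animals. The groups were apart with CO2-O2, as for 21% of features with BDCM below oil, and overlapped with isoflurane, where 22.7% of features lay apart with BDCM below oil. Abcc6 was 31.9% lower with CO2-O2 (log2 -0.55 ± 0.15, SE; adjusted p = 0.0273), and the isoflurane difference of -0.30 ± 0.15 did not pass (adjusted p = 0.164). Averaged over both experiments it was 25.7% lower (adjusted p = 0.00945), and this call held in all 29 alternatives. The CO2-O2 call ended in 9 of 30, among them a block for slide (adjusted p = 0.0601) or scan day (0.0573), no filter on dim probes (0.0517), and the loss of oil animal 1 (0.0759), 2 (0.0784) or 3 (0.0603) or BDCM animal 2 (0.0888) or 3 (0.0861).

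Abcc1, a pump of glutathione conjugates and leukotrienes found in many tissues, did not differ beyond the spread of the animals. Its brightest probe read 1.83, 1.70 and 1.86 in CO2-O2 BDCM animals, against 1.67, 1.79 and 1.81 in CO2-O2 oil animals. It read 1.74, 1.95 and 1.92 in isoflurane BDCM animals, against 1.69, 1.85 and 1.61 in isoflurane oil animals. Groups overlapped in both experiments. The mean effect was 0.08 on the log2 scale with a 95% interval of -0.05 to 0.21 (adjusted p = 0.317), which leaves out a rise of the size of any of the 6 pumps that passed. The other 3 probes had mean effects of -0.08, 0.03 and 0.06. The CO2-O2 value, 0.03, changed sign with the mean of the 4 probes (-0.05), with a block for slide or for scan day (-0.05 each) and without oil animal 1 (-0.0020).

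Taken probe by probe, 14 of the 21 pump probes passed as higher in the mean of both experiments and 1 as lower, where 17.9% and 20.4% of 43275 probes did. With CO2-O2 these were 13 and 1 of 21 (9.86% and 9.89% of all probes), and with isoflurane 13 and 0 (13.1% and 12.7%). Only Abcb1b had probes whose intervals did not overlap.

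**Figure D3:**
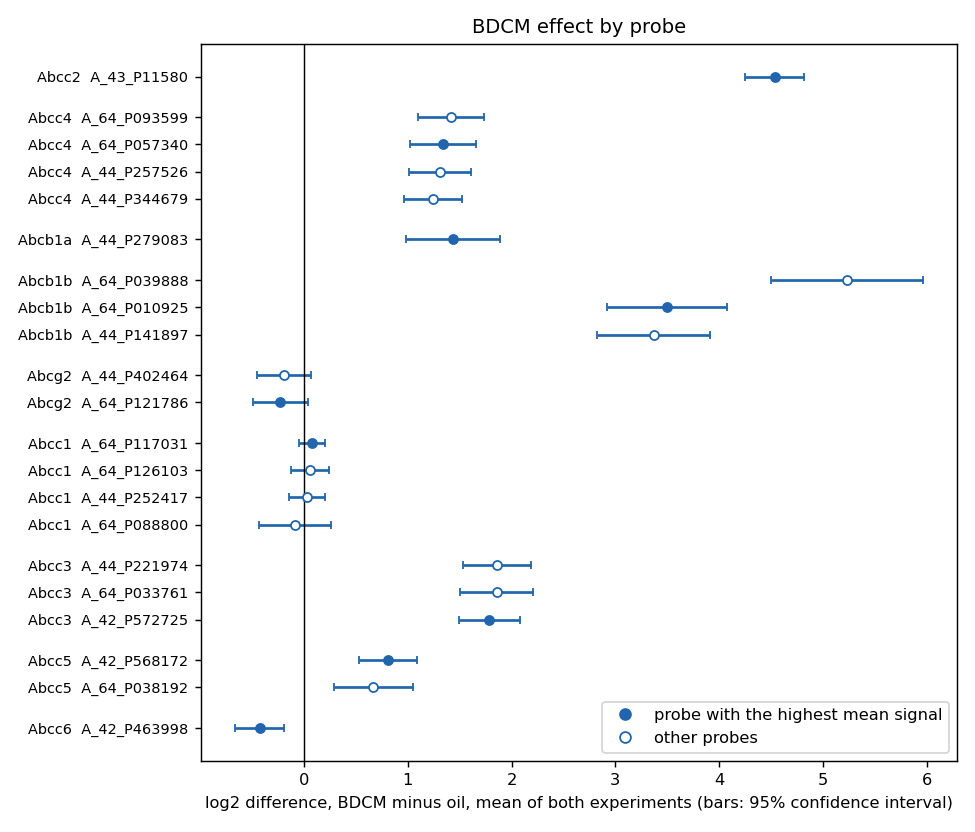
Log2 difference, BDCM minus oil, averaged over both experiments, for each of the 21 pump probes, with 95% confidence intervals; filled points are the brightest probe of each gene. Probes of a gene lie together except in Abcb1b, where 1 probe lies at 5.23 and the other two at 3.37 and 3.49.

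The BDCM effect was also compared between experiments. No pump differed in its response (isoflurane minus CO2-O2) after adjustment by limma, where 0% of features passed in either direction and 1731 features had an unadjusted p under 0.05. The 1 pump among these was Abcc2, whose rise was 0.70 ± 0.26 greater on the log2 scale with isoflurane (unadjusted p = 0.0212; adjusted p = 0.935). For the other 8 pumps the differences ran from -0.35 (Abcg2) to 0.35 (Abcb1b). The interval was widest for Abcb1b (-0.80 to 1.51), which takes in differences of either sign, and narrowest for Abcc1 (-0.17 to 0.35).

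Between experiments within a treatment, anaesthesia, slide and scan day cannot be told apart. Among BDCM animals, Abcc2 was 1.93-fold higher with isoflurane than with CO2-O2 (1.46 to 2.55; adjusted p = 0.00839), the 1 pump of 9 that passed, where 11.8% of features were higher and 5.25% lower. This call ended when the BDCM groups were fitted alone (adjusted p = 0.0662). Without isoflurane BDCM animal 3, the animal that alone used its slide and scan day, both Abcc2 and Abcb1b passed. Liver transcripts also differed between these groups, and their part in the Abcc2 difference was not tested. The summed relative signal of 13 hepatocyte markers was 19.4 to 23.2 in isoflurane BDCM animals, where 9 of 13 were well above background on all 3 arrays, and 28.9 to 35.4 in CO2-O2 BDCM animals, where 13 of 13 were. Alb was well above background in 1 of 3 isoflurane BDCM animals. Without the pair of isoflurane animals highest in these transcripts the Abcc2 difference was 0.96 on the log2 scale (adjusted p = 0.0396), beside 0.95 with all animals. This pair was 1 oil animal and the isoflurane BDCM animal nearest to the CO2-O2 BDCM animals in these transcripts. The fit therefore widens the liver difference between the BDCM groups and cannot decide its part.

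Among oil animals no pump passed, where 7.53% of features were higher and 3.56% lower with isoflurane. By unadjusted p under 0.05 there was 1, Abcb1a, at 0.76 ± 0.29 on the log2 scale (adjusted p = 0.124). Of the 34218 features tested, 9151 had an unadjusted p under 0.05 here, so Abcb1a does not stand out by this count. In this comparison the median of all features was -0.06 when arrays were scaled to their median, and 0.05 with the 75th percentile.

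Ordered by mean log2 level over the 4 groups, Abcc2 was highest in isoflurane BDCM kidneys (6.71), then in CO2-O2 BDCM (5.76), isoflurane oil (1.82) and CO2-O2 oil kidneys (1.58), and the oil groups did not differ beyond their spread (adjusted p = 0.429). Abcb1b, Abcb1a and Abcc4 had the same order, but the difference between experiments passed neither in their BDCM groups (adjusted p = 0.226, 0.204 and 0.155) nor in their oil groups (0.625, 0.124 and 0.195). These are the brightest probes. Of the 3 Abcb1b probes, 1 dimmer probe passed among BDCM animals, at 2.42-fold higher with isoflurane than with CO2-O2 (adjusted p = 0.0334 over all probes). Abcc3 and Abcc5 were also highest in both BDCM groups, whose difference did not pass (0.742 and 0.867), and the oil groups did not separate either (0.980 and 0.498). Abcc6 and Abcg2 were highest in isoflurane oil kidneys (1.06 and 3.58), and the 4 means of Abcc1 lay between 0.78 and 0.90.

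Some animals stood high or low for several pumps. In the isoflurane BDCM group, animal 2 was the highest and animal 3 the lowest for Abcc2, Abcb1b, Abcc3 and Abcc4. Animal 3 was below its group mean by -0.34, -0.82, -0.44 and -0.38 on the log2 scale for these genes. Its array lay on a slide and scan day of its own, and the part of this in its values was not tested. After removal of group means, Abcc2 and Abcb1b had a Pearson r of 0.81 over the 12 arrays and Abcb1b and Abcc4 0.68, while Abcc3 and Abcb1a had -0.01. These arrays share scaling and slides, and the values are a description.

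The named genes closest to each pump over the 12 arrays were taken by Pearson r of log2 signal among 12185 genes, as a description of arrays that share their groups. For Abcc2 they were the ribosomal protein genes Rpl13a and Rpl12 and asparagine synthetase, Asns (0.99 each). For Abcb1b they were Lyrm9, the ribosomal protein gene Rpl17 and the initiation factor subunit Eif3m (0.99 each), and for Abcc3 the fucosyltransferase Fut1, Asns and Rps18 (0.99 each). Abcb1a was closest to neuregulin 1, Nrg1 (0.98), then Mrpl51 and E2f3. For Abcc4 they were P2ry2, Nelfe and Rab5if (0.97 each), for Abcc5 Polr1g, Tmed9 and Zfp428 (0.99 each), and for Abcc6 Immt, Lrpap1 and Rassf7 (0.96 each). Abcg2 (Pcdhb12, Thsd7a and Aoc3, 0.87 to 0.90) and Abcc1 (Camk2g, Rep15 and Adam23, 0.84 to 0.87) had looser neighbours.

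The ABC family also holds lipid exporters, mitochondrial transporters and a chloride channel. Of 29 such ABC genes tested, 8 were higher, 6 were lower and 15 did not pass in the mean of both experiments, with a median of -0.05. Beside these counts, 17.7% of all features were higher and 20.4% lower. The cholesterol exporter Abca1 rose 2.27-fold (adjusted p = 0.00178) and Abca5 rose 2.31-fold (adjusted p = 0.0054). Abca5 did not pass with CO2-O2 alone (adjusted p = 0.176). It was well above background on 2 of 3 CO2-O2 oil arrays and 1 of 3 isoflurane oil arrays. The sterol exporter Abcg5 also passed as higher (adjusted p = 0.00605). With isoflurane it was not well above background in oil animals, and there it was at least 1.48-fold higher in BDCM animals, while its CO2-O2 difference did not pass (adjusted p = 0.0837). The chloride channel Cftr fell by 1.28 ± 0.27 (adjusted p = 0.00394), and Abca4 by 0.61 ± 0.18 (adjusted p = 0.021). With CO2-O2 alone neither passed (adjusted p = 0.0582 and 0.145). With isoflurane alone Cftr passed (0.0207) and Abca4 did not (0.0801). Abca15 passed as lower (adjusted p = 0.00421). With isoflurane it was not well above background in BDCM animals, and there it was at least 2.57-fold lower in BDCM animals, while its CO2-O2 difference did not pass (adjusted p = 0.0802). The call of Abca4 ended without isoflurane BDCM animal 2 (adjusted p = 0.0521).

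**Figure D4:**
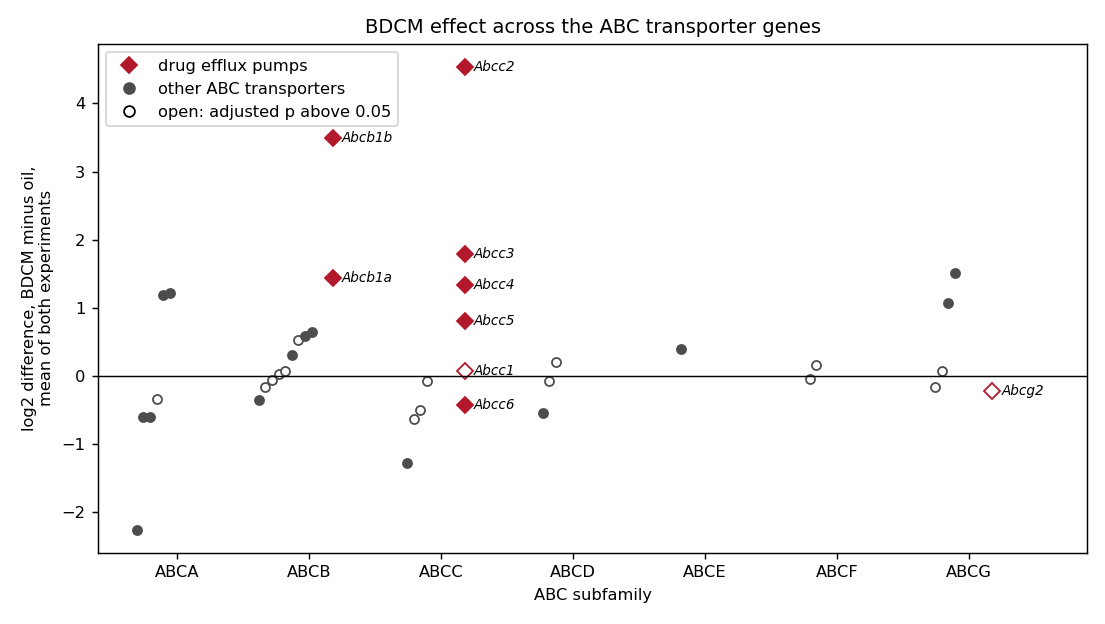
Log2 difference, BDCM minus oil, averaged over both experiments, for the 9 drug efflux pumps (diamonds) and 29 other ABC genes (circles) by subfamily; open symbols had an adjusted p above 0.05. The points of Abca15 (lowest) and Abcg5 (highest ABCG) each rest in part on a group that was not well above background. Abcc2 at 4.53 and Abcb1b at 3.49 stand above every other ABC gene tested, the next being Abcc3 at 1.78.

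The organic ion carriers, many of which load tubule cells from the blood, fell more often than they rose. Of 26 tested, 15 fell, 3 rose and 8 did not pass, with a median of -0.54. Beside these counts and the marker count below, 17.7% of all features were higher and 20.4% lower. The organic cation transporter Slc22a2 fell by 1.67 ± 0.25 on the log2 scale (adjusted p = 0.000596), and the organic anion transporting polypeptides Slco1a6 and Slco1a1 by 2.24 ± 0.43 and 1.81 ± 0.30. Those that rose were the bile acid carrier Slc10a2 (2.13-fold) and the phosphate and urate carriers Slc17a1 (1.94-fold) and Slc17a3 (1.82-fold). Slc17a3 did not pass with CO2-O2 alone (adjusted p = 0.0746). Of 10 proximal tubule markers, 10 fell (median -0.67), and the marker and carrier lists share a gene. The summed relative signal of the 9 with a value on every array was 693 to 880.5 in CO2-O2 BDCM animals, against 1171 to 1203 in CO2-O2 oil animals. It was 646 to 937 in isoflurane BDCM animals, against 1293 to 1356 in isoflurane oil animals. The part of this in the pump and carrier values was not tested.

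Of 38 conjugating enzymes and glutathione synthesis genes, which make the substrates of several ABCC pumps, 13 rose, 9 fell and 16 did not pass. Their median was 0.10, and 17.7% of all features were higher and 20.4% lower. The glucuronosyltransferase Ugt2b7 rose 27.6-fold (adjusted p = 0.000773), or 17.99-fold without isoflurane BDCM animal 1. Its BDCM animals were spread from 5.92 to 34.5 in relative signal with CO2-O2 and from 3.47 to 66.3 with isoflurane, against 0.195 to 0.959 and 0.397 to 0.804 in oil animals. The glutathione transferases Gstm1 and Gstp1 rose 15.6-fold (adjusted p = 1.76e-06) and 5.15-fold (adjusted p = 3.44e-07). The sulfotransferase Sult1c2 fell by 2.39 ± 0.39 on the log2 scale. Both subunits of the enzyme that starts glutathione synthesis fell, Gclc by 1.12 ± 0.23 (adjusted p = 0.00355) and Gclm by 0.77 ± 0.25 (adjusted p = 0.0323). The Gclm call ended in 7 of the 12 fits that each left out 1 animal (adjusted p of 0.0508 to 0.0723 there). With CO2-O2 alone neither gene passed (adjusted p = 0.0605 for Gclc and 0.268 for Gclm). With isoflurane alone Gclc passed (0.0172) and Gclm did not (0.0723).

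In the mean of both experiments 17.7% of all features were higher and 20.4% lower. Among 20 genes listed as Nrf2 targets, 11 rose, 5 fell and 4 did not pass, with a median of 0.41. Those with the greatest rises were Nqo1, a quinone reductase (6.39-fold; adjusted p = 3.48e-05), Slc7a11, a cystine carrier (9.74-fold), and Akr1b8, an aldo-keto reductase (12.5-fold), while Gclc, Gclm and Osgin1 (by 1.04 ± 0.24) fell. Among 21 genes for factors that are known to control pump transcription, 2 rose, 5 fell and 14 did not pass, shares near or below those of all features (17.7% higher and 20.4% lower). The factors Ybx1 (1.23-fold) and Hsf1 (1.11-fold) rose, and Hnf4a (by 0.69 ± 0.19) and the bile acid receptor Nr1h4 (by 0.57 ± 0.12) fell. The call of Hsf1 ended in 10 of 12 fits that each left out 1 animal. Hsf1 and Hnf4a passed in neither experiment alone. Osgin1 and Ybx1 passed with isoflurane alone (adjusted p = 0.0376 and 0.0284) and not with CO2-O2 alone (0.0736 and 0.0622). Array signal gives the mRNA of a factor and not its activity.

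Of 6 scaffold genes that tether brush border transporters, 0 rose, 4 fell and 2 did not pass. Beside this count and the marker counts below, 17.7% of all features were higher and 20.4% lower. Pdzk1 fell by 0.65 ± 0.09 on the log2 scale (adjusted p = 0.000452), Nherf1 by 0.41 ± 0.11 and Msn by 0.25 ± 0.07. Msn did not pass without CO2-O2 oil animal 1 (adjusted p = 0.0534) or isoflurane oil animal 1 (0.0522). Nherf1 and Msn passed in neither experiment alone (adjusted p = 0.0877 and 0.0963 with CO2-O2, 0.0654 and 0.132 with isoflurane). The tubular injury marker Havcr1 rose 25.7-fold in the mean of both experiments (adjusted p = 6.92e-05). Of markers of other cell types in the cortex, 6 of 8 podocyte, 4 of 9 endothelial, 3 of 10 distal tubule and collecting duct, and 1 of 10 leukocyte markers fell, and 1 distal marker and 0 of the others rose. Of 13 hepatocyte markers 2 rose, 3 fell and 8 did not pass, and Alb was among the last (0.45 ± 1.15 on the log2 scale, adjusted p = 0.786).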

How the data were processed

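Renal cortex RNA of 12 rats in 4 groups of 3 was measured, and groups were taken from the labels. The authors' scanner files hold intensity values with the background subtracted and no scaling across arrays. The submitters' processing notes name version 10.7 of Agilent's Feature Extraction, and the file headers give 10.7.1.1. The authors also deposited a value table, in the form of a linear ratio of the processed signal to its array's 75th percentile; each of its CO2-O2 columns equals another animal of the same group, and animals are numbered here by scanner file.

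Symbols came from RefSeq annotation (GRCr8). Control and spike-in probes and outlier spots (115) were left out. Each array was scaled by its 75th percentile before log2 was taken. The brightest probe stood for a gene, and a feature was kept if some group had it well above background in all 3 animals (34218 of 49397; all 9 pumps and 21 pump probes). A model with 1 mean per group was fitted with limma 3.58.1 (R 4.3.3, with version 1.17.8 of data.table), with p adjusted by Benjamini and Hochberg over all features and a threshold of 0.05. Confidence intervals are at 95%. BDCM was compared with oil within either experiment, these effects were averaged and subtracted, and isoflurane was compared with CO2-O2 within each treatment. The steps were tested on simulated data with 66 or 67 of 34164 features changed at each fold size, far fewer than were called here. Of 1.5-fold changes, 59.7% were recovered in the mean of both experiments and 31.3% in either experiment alone. Of 4-fold changes, 97.0% were recovered in the mean, 95.5% with CO2-O2 and 92.4% with isoflurane. False calls made up 4.82%, 5.30% and 7.75% of all calls, in the same order. Figures used matplotlib 3.10.9 (Python 3.11.15, pandas 2.3.3).

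A fold against a group with no array well above background is a lower bound, with that group's signals raised to the lowest signal well above background on the same array. Named genes are all pumps, up to 3 per direction with the largest mean effect among the passing genes of the other ABC, organic ion carrier, conjugation, regulator, Nrf2 target and scaffold lists, the 3 genes most like each pump, and Alb, Havcr1 and Nqo1. A regulator gene that the rule names is not reported here. The pumps and lists were chosen with earlier results of these data known. Alternatives changed the scaling, background correction (normexp with an offset of 50 on median spot signals, since mean spot signals are not used here), filter, probe choice, model, block and threshold, and left out each animal in turn. The blocks by scan day and by the numbers of the value table were added after the data were seen.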

Additional observations from a re-analysis of the deposited data

How the results depend on the processing

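Over 29 or 30 alternatives, the calls of Abcc2, Abcb1b, Abcc3 and Abcc4 held in both experiments and in their mean, and those of Abcc5, Abcb1a and Abcc6 in the mean. For single pumps, 853 values kept direction and side of the threshold, 22 lost a call, 7 changed sign and 0 gained one. The count of pumps lower with CO2-O2 (1, Abcc6) was 0 without a filter, with a block for slide or for scan day and at a threshold of 0.01, and 0 to 1 when each animal was left out. The count higher with isoflurane among BDCM animals (1, Abcc2) was 0 with only the groups compared, and 1 to 2 when each animal was left out (2, Abcc2 and Abcb1b, without isoflurane BDCM animal 3). Sign changes were limited to pumps that did not pass. The CO2-O2 value of Abcg2 was 0.0032 with normexp and -0.15 to 0.11 over the animals left out, and that of Abcc1 was -0.0523 with the mean of probes, -0.0488 with either block and -0.0020 to 0.0736 over the animals left out. The cause was not tested. A fixed block by slide or scan day cannot be had between experiments, which share neither, and replicate numbers were blocked within each experiment. For the CO2-O2 experiment the blocks by slide and by scan day are the same split of arrays, and not separate checks.

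The replicate numbers of the labels mark no stated shared cage or day. Deviations of same-numbered animals correlated at -0.024 to 0.054 over all features, beside -0.085 to 0.048 for animals of different numbers. Whether same-numbered animals share more than a number was not tested. With the replicate block, 6 pumps rose and 1 fell in the mean, 5 and 1 in CO2-O2 and 6 and 0 in isoflurane; Abcc5 lost its CO2-O2 call (adjusted p = 0.0665). The block by value table number sets the same animals together, so it repeats this fit and had to give the same counts. It is still counted among the alternatives. Fits to the value table and with every probe as its own feature are counted too. Both use the same scaled signals of each pump's brightest probe, so they largely repeat the main fit. The number of arrays, 3 per group, limits what could be seen, and a dim probe such as that of Abcb1a lies closer to the background.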

Other observations

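Abcb1a varied among animals of the same treatment, in a pattern that was noticed among the pumps and not tested. How many features had the same animal number highest in all 4 groups was not counted. Animal 2 was the highest of its group in all 4 groups, by 0.47 on the log2 scale above the mean of CO2-O2 BDCM animals, 0.50 above that of CO2-O2 oil animals, 0.33 above that of isoflurane BDCM animals and 0.45 above that of isoflurane oil animals. Abcc2 was also highest in animal 2 of each group (by 0.23, 0.14, 0.38 and 0.07, in the same order of groups). With the replicate block the standard error of the mean Abcb1a effect was 0.0582, against 0.204 without it, which restates the same pattern. The labels state nothing that same-numbered animals share. In the value table the CO2-O2 animals counted as animal 2 here carry the number 1 in both treatments, and the isoflurane animals carry the number 2. The gene closest to Abcb1a over the 12 arrays was Nrg1 (Pearson r = 0.98), and 12185 genes were compared.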
